A study of Mus musculus with 3 samples.

Results

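The cytosolic heat shock chaperone genes described here are 10 genes chosen by name: Hspa1a, Hspa1b, Hspa8, Hsph1, Hsp90aa1, Hsp90ab1, Hspb1, Hspb7, Dnajb1 and Bag3. They are 10 of the 30415 gene symbols in droplet single-cell RNA-seq libraries of mouse hearts, and all 10 had UMIs (unique molecular identifiers, which count captured transcripts) in all 3 libraries. The mice were NOD/SCID, a strain without functional T and B lymphocytes, given an isotype control antibody or an antibody against PD-1 or PD-L1 on days 0 and 7, with hearts taken on day 14. Hearts were digested with enzymes and 3 hearts were pooled for each library. The sources used here do not give the age and sex of the mice. With 1 library per group nothing was replicated and groups could not be tested against each other, and each interval given is a 95% interval for counting error alone. Titles and treatment tags disagree: Atezolizumab is the tag under the title PD1/PEM and Pembrolizumab the tag under PDL1/ATZ. The titles are used as names here, and no antibody is assigned.

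The isotype, PD1/PEM and PDL1/ATZ libraries held 9510, 6388 and 11599 cells with 16677883, 14766346 and 15144668 UMIs. The PDL1/ATZ library stood apart: its median cell had 8.04% mitochondrial UMIs, against 27.1% in isotype and 26.9% in PD1/PEM, and it held no UMI of 1942 symbols read in the other libraries, which held none of 2893 symbols read in it. None of the 10 chaperone genes was among those symbols. There were 23 cell barcodes common to isotype and PD1/PEM and 0 common to either and PDL1/ATZ. The labelled tissue was checked by its defining transcripts: all 10 cardiomyocyte genes checked (Myh6, Tnnt2, Ttn and others) were read in every library. Their summed level was 35188 CPM (UMIs per 1000000 UMIs of a library) in isotype, 23938 CPM in PD1/PEM and 15422 CPM in PDL1/ATZ.

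Heat shock chaperones hold unfolded proteins in solution and return them to their folded state. The Hsp70 proteins bind exposed stretches of a client in a cycle driven by ATP, J-domain proteins such as Dnajb1 start that cycle, and exchange factors such as Bag3 and Hsph1 end it. Hsp90 proteins complete the folding of kinases and steroid receptors, and small heat shock proteins bind unfolding proteins without ATP. The stress-induced members are switched on within minutes by the transcription factor HSF1, which binds as a trimer to inverted repeats of the unit GAA, and they are also known to respond to the warm enzymatic digestion of tissue. In heart muscle, Bag3 with Hspb8 and Hsp70 clears damaged filamin at the Z-disc.

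RefSeq promoter windows on GRCm38.p6 were found for 7 of the 10 genes, and for Hspa8, Hsp90aa1 and Hsp90ab1 none was found. Windows of 300 bases, 250 before and 50 after the annotated start, were searched for the paired units GAANNTTC and TTCNNGAA, which read the same on both strands and can overlap each other. Of 32851 such windows over all genes, 7.86% held GAANNTTC, 8.52% held TTCNNGAA and 0.603% held 3 such units in alternating orientation, 2 bases apart. Paired units were present in 5 of the 7 genes and the triple unit in 1, Hsph1. The 250 bases before the start are printed 5′ to 3′ on the strand of the gene, with paired units in capitals, for the inducible Hsp70 pair, which was higher in PD1/PEM and lower in PDL1/ATZ, for Hspb1, which was lower in PD1/PEM, for Hsph1, the gene with the lowest ratio of PDL1/ATZ to isotype, and for Dnajb1, the gene with the highest ratio of PD1/PEM to isotype.
Hspa1a, chr17:34972157-34972406, minus strand: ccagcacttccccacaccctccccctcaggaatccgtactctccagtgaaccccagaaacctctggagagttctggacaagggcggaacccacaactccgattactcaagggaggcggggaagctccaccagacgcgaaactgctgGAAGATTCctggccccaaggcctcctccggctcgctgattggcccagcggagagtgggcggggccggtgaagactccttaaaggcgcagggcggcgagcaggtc
Hspa1b, chr17:34959239-34959488, minus strand: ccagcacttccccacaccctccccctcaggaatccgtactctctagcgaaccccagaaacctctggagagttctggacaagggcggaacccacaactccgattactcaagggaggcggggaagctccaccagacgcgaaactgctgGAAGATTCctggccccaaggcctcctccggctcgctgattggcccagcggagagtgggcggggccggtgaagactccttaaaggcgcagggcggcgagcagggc
Hsph1, chr5:149636337-149636586, minus strand: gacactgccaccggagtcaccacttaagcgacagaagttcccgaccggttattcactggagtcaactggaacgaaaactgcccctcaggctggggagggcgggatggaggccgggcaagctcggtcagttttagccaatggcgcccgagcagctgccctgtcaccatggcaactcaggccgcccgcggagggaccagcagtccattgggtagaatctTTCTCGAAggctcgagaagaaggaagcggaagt
Hspb1, chr5:135887669-135887918, plus strand: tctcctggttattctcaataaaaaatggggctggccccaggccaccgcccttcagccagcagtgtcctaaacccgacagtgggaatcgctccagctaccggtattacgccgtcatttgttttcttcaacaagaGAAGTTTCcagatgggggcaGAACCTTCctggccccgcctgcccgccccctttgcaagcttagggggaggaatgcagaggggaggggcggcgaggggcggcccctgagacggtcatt
Dnajb1, chr8:83607925-83608174, plus strand: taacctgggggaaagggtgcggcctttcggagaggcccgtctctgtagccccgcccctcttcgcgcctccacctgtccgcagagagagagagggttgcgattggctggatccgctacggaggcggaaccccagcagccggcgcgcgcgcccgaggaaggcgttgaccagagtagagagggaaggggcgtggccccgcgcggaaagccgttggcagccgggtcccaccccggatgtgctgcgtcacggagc
Hspa1a and Hspa1b were identical at 247 of these 250 bases, and each held 1 GAANNTTC that began 104 bases before the start. Hspb1 held 2, beginning 117 and 97 bases before the start. Hsph1 held TTCNNGAA at 33 bases before the start and overlapping TTCNNGAA and GAANNTTC that began 36 and 41 bases after it, and Bag3 held GAANNTTC 42 bases after its start. Neither the windows of Dnajb1 nor that of Hspb7 held these letters, which is a statement about the letters in these windows alone.

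The inducible Hsp70 genes Hspa1a and Hspa1b are neighbouring genes of 1 exon each on chromosome 17 of GRCm38 (34969190 to 34972156 and 34956436 to 34959238). Hspa1a stood at 81.4 CPM in isotype (77.2 to 85.9), 110 CPM in PD1/PEM (105 to 116) and 62.1 CPM in PDL1/ATZ (58.2 to 66.2). Hspa1b stood at 89.2 CPM (84.7 to 93.9), 113 CPM (107 to 118) and 43.2 CPM (39.9 to 46.6) in the same order. Both genes were highest in PD1/PEM and lowest in PDL1/ATZ, with no overlap between the counting intervals of the 3 libraries. Ratios to isotype with an interval that left out 1 were common over all genes at this depth. In PD1/PEM 3037 of 14748 genes lay above 1 in this way and 2653 below. In PDL1/ATZ 10458 of 15496 genes lay above 1 and 1702 below. In PD1/PEM, Hspa1a was 1.35-fold higher than in isotype (1.26 to 1.45) and Hspa1b 1.26-fold higher (1.18 to 1.35). In PDL1/ATZ, Hspa1a was 1.31-fold lower (1.21 to 1.43) and Hspa1b 2.07-fold lower (1.88 to 2.27), so the pair parted there: the genes were close to equal in isotype and PD1/PEM, and Hspa1a exceeded Hspa1b in PDL1/ATZ. The last 500 bases of their transcripts, where 3′ reads fall, shared no stretch of 60 bases with each other or another gene, but their coding sequences are nearly alike, so the summed pair is also given: 171, 223 and 105 CPM. A sum over all cells cannot tell more cells with a transcript from more transcripts per cell.

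**Figure D1:**
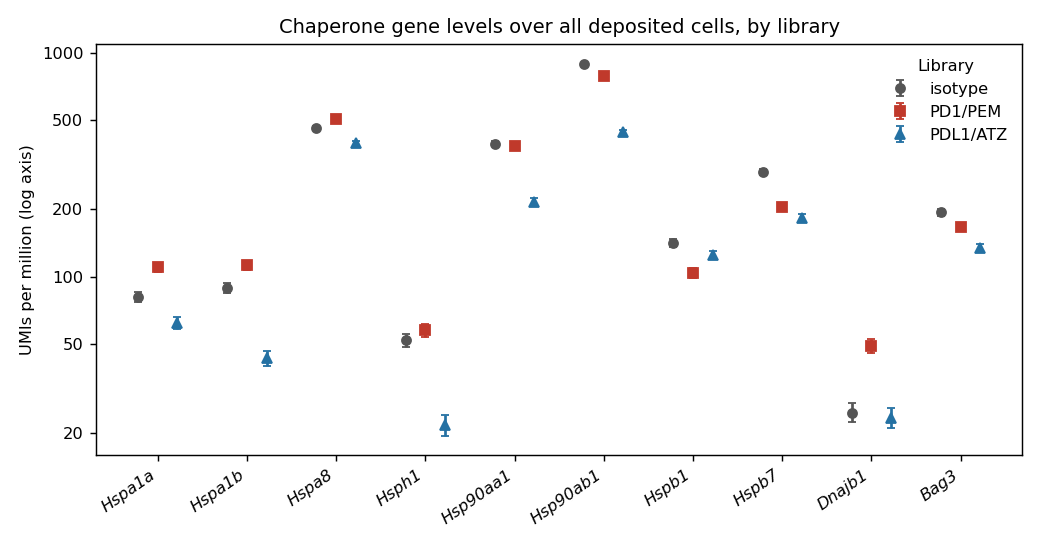
Level of each chaperone gene in CPM (log axis) in the isotype, PD1/PEM and PDL1/ATZ libraries; bars are 95% counting intervals. PDL1/ATZ is the lowest library for 8 of the 10 genes, with no overlap of intervals. Its ratio to isotype had an interval below 1 for 9 of the 10 genes. Of all 15496 genes tested, 1702 had an interval below 1 and 10458 had one above 1. Dnajb1 stands alone at 49.0 in PD1/PEM and Hspb1 is lowest there.

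Hspa8, the constitutive Hsp70 that does most housekeeping folding, was far more abundant than the inducible pair and differed less between libraries. The gene lies on chromosome 9 (40800984 to 40810087). It stood at 464, 508 and 397 CPM in isotype, PD1/PEM and PDL1/ATZ, 1.09-fold higher in PD1/PEM (1.06 to 1.13) and 1.17-fold lower in PDL1/ATZ (1.13 to 1.21). Of the 60-base stretches in the end of its transcript, 81.4% also occur in other annotated genes, mainly the pseudogene Gm15459, so reads could be split and its level is uncertain. Hsph1, the large Hsp70 relative that acts as exchange factor (chromosome 5, 149614287 to 149636376), stood at 52.0 CPM in isotype (48.6 to 55.6), 57.6 CPM in PD1/PEM (53.8 to 61.6) and 21.7 CPM in PDL1/ATZ (19.4 to 24.1). Its isotype and PD1/PEM intervals overlapped, and its 2.40-fold lower level in PDL1/ATZ (2.11 to 2.74) was the widest gap of the 10 genes in either comparison. UMIs at the 3′ end count transcripts once whatever their length, so these levels were compared between genes without a length correction.

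Dnajb1, the stress-induced J-domain partner of Hsp70, gave the clearest difference of PD1/PEM. The gene has 3 exons on chromosome 8 (83608193 to 83612653). It stood at 24.6 CPM in isotype (22.3 to 27.1), 49.0 CPM in PD1/PEM (45.5 to 52.7) and 23.4 CPM in PDL1/ATZ (21.1 to 26.0). PD1/PEM was thus apart from both other libraries, whose intervals overlapped. The PD1/PEM level was 1.99-fold that of isotype (1.76 to 2.25), a log2 ratio above that of 99.1% of the genes tested. In PDL1/ATZ, Dnajb1 was at 0.951 of isotype (0.823 to 1.10). That direction turned to higher among cells with at most 25% mitochondrial UMIs and with every cell given the same weight. Bag3, the exchange factor that links Hsp70 to autophagy in muscle (chromosome 7, 128523616 to 128546981), ran the other way: 194, 168 and 134 CPM, 1.16-fold lower in PD1/PEM (1.10 to 1.22) and 1.44-fold lower in PDL1/ATZ (1.36 to 1.53).

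Of the Hsp90 genes, Hsp90ab1 was the most abundant gene of the 10 in each library and Hsp90aa1 lay below Hspa8. Hsp90ab1, the constitutive form (chromosome 17, 45567775 to 45573271), stood at 892 CPM in isotype, 789 CPM in PD1/PEM and 443 CPM in PDL1/ATZ. Hsp90aa1, the inducible form (chromosome 12, 110690605 to 110702728), stood at 393, 383 and 216 CPM. In PDL1/ATZ they were 2.02-fold (1.96 to 2.07) and 1.82-fold (1.74 to 1.89) lower than in isotype. In PD1/PEM, Hsp90ab1 was 1.13-fold lower (1.10 to 1.16), and the interval of Hsp90aa1 included no difference (0.974 of isotype, upper limit 1.01), with a log2 ratio that was above 0 in 1 of 8 alternative settings, the same weight for every cell. Its upper limit lay below the lower limits of Hspa1a, Hspa1b and Dnajb1, but not below that of Hsph1.

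The small heat shock genes were lower in PD1/PEM. Hspb7, the form restricted largely to heart and other muscle (chromosome 4, 141420779 to 141425311), stood at 294 CPM in isotype (286 to 302), 205 CPM in PD1/PEM (198 to 212) and 183 CPM in PDL1/ATZ (176 to 190). Hspb1, which is found in many cell types (chromosome 5, 135887919 to 135889563), stood at 141, 104 and 125 CPM. In PD1/PEM, Hspb7 was 1.43-fold lower than in isotype (1.37 to 1.5) and Hspb1 1.36-fold lower (1.27 to 1.45). In PDL1/ATZ, Hspb7 was 1.60-fold lower (1.53 to 1.68) and Hspb1 1.13-fold lower (1.06 to 1.20). Hspb1 was thus the 1 gene of the 10 with its lowest level in PD1/PEM, and 13.4% of the 60-base stretches at the end of its transcript also occur in the pseudogene Hsp25-ps1. Over the same cells all 10 cardiomyocyte-defining transcripts were lower in both libraries, with median log2 ratios of -0.63 in PD1/PEM and -0.81 in PDL1/ATZ.

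The first comparison asked how chaperone transcripts differed between the library titled PD1/PEM and isotype. A gene was called when its ratio was at least 1.5-fold with an interval that left out 1, among genes with at least 50 UMIs over both libraries. By that rule 1 of the 10 genes, Dnajb1, was higher, where 5.0% of all 14748 genes tested were higher, and 0 were lower, where 3.65% of all genes were. The 10 genes split 5 above and 5 below a log2 ratio of 0, with a median of 0.05 against 0.01 for all genes. Hspa1a, Hspa1b, Hspa8, Hsph1 and Dnajb1 lay above 0 (log2 0.13 to 0.99). Hsp90aa1, whose interval included 0, Hsp90ab1, Hspb1, Hspb7 and Bag3 lay below it (-0.52 to -0.04). Hspa1a and Hspa1b, at 0.44 and 0.34, missed the 1.5-fold line.

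The other genes of the chaperone network were not higher as a group in PD1/PEM. Of 46 tested genes (Hsf1 and Hsf2, further Hsp70, J-domain, small heat shock, BAG and Hsp90 cochaperone genes, the mitochondrial chaperonin and the subunits of the cytosolic chaperonin TRiC), 1 was called higher, 4 were called lower and 39 lay below 0, with a median of -0.14. Of all 14748 genes tested, 5.0% were called higher, 3.65% were called lower and 7206 lay below 0, with a median of 0.01. The gene called higher was Hspa2, an Hsp70 best known from male germ cells, at 18.6 against 12.2 CPM (1.53-fold, 1.27 to 1.84). The genes called lower were Dnajb5 (2.24-fold, 1.88 to 2.67), Cryab, the alpha B-crystallin of the Z-disc (1.76-fold, 1.68 to 1.83), Hspb8, the partner of Bag3 (1.53-fold, 1.4 to 1.67), and Dnajb2 (1.51-fold, 1.33 to 1.71). Hsf1, the gene of the regulator itself, stood at 13.9 CPM in isotype and 15.4 CPM in PD1/PEM, a ratio of 1.11 whose interval included 1 (0.920 to 1.34).

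Immediate early genes, which share the response to digestion and stress, stood higher in the same library. Of 20 tested, 7 were called higher and 0 lower, with a median log2 ratio of 0.48. Of all genes, 5.0% were called higher and 3.65% lower, with a median of 0.01. The list was led by the transcription factor genes Egr3 (log2 2.41) and Egr2 (1.87), with the antiproliferative gene Btg2 next at 552 against 232 CPM. In PDL1/ATZ, 3 were called higher and 1 lower, with a median of -0.02, where 48.5% of all genes were called higher with a median of 0.58, and 17 of the 20 lay below that median. The part of dissociation or of these transcripts in the higher Dnajb1, Hspa1a and Hspa1b levels was not tested.

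**Figure D2:**
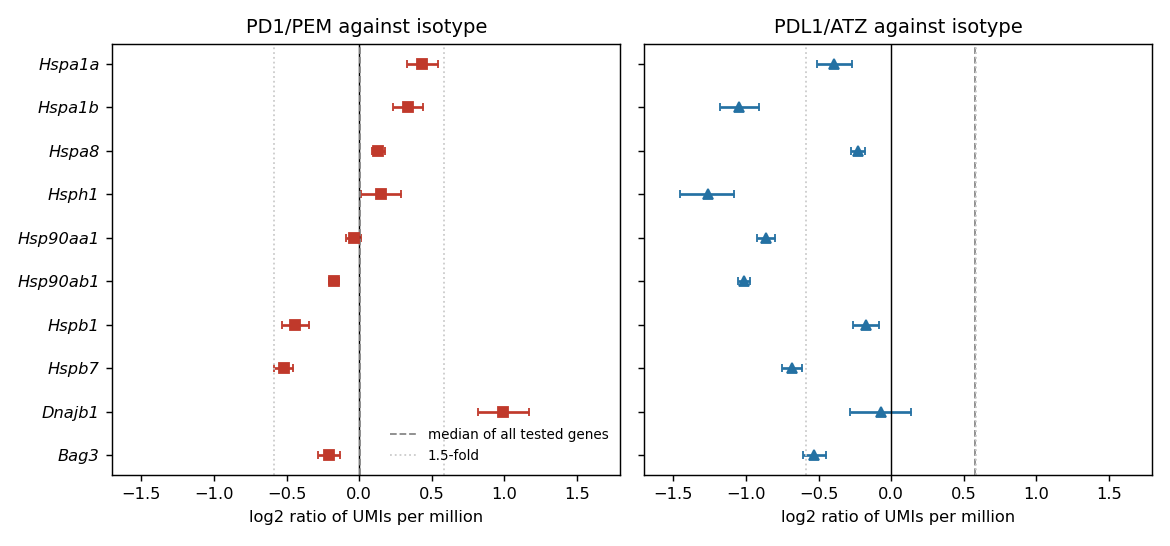
Log2 ratio of the CPM of each chaperone gene, PD1/PEM (left) and PDL1/ATZ (right) against the same isotype library; bars are 95% counting intervals, dotted lines 1.5-fold and dashed lines the median of all genes tested (0.01 and 0.58). The 10 genes straddle the median on the left, with Dnajb1 far right at 0.99, and all lie under it on the right.

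The second comparison asked the same of the library titled PDL1/ATZ, against the same isotype library. Here 0 of the 10 genes were called higher, where 48.5% of all 15496 genes were, and 5 were called lower, where 5.18% of all genes were: Hspa1b, Hsph1, Hsp90aa1, Hsp90ab1 and Hspb7. All 10 log2 ratios were below 0, with a median of -0.61, while the median of all genes was 0.58. Relative to that median the 10 genes lay between -0.65 (Dnajb1) and -1.84 (Hsph1), and none ranked above percentile 15.7 of the genes tested. The shift of all genes depends on the scaling: 90.3% of the genes called were higher by total UMIs, 73.5% by nuclear UMIs and 57.2% by median-of-ratios scaling. Under the last of these the median of all genes was 0.08 and that of the 10 genes -1.10. By that scaling 9 of the 10 were called lower, where 2310 of all genes were, against 803 of all genes by total UMIs. The lower share of mitochondrial UMIs moves with this comparison. Among cells with at most 25% mitochondrial UMIs Hsp90ab1 was at 0.509 of isotype, Hspa1b at 0.495 and Hsph1 at 0.432, against 0.496, 0.484 and 0.416 over all cells. That limit kept 11590 of 11599 PDL1/ATZ cells and 2602 of 9510 isotype cells. It did not set cells of like mitochondrial share against each other, so the part of that share was not tested. With 1 library a group, the library and the treatment cannot be told apart.

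Across the network in PDL1/ATZ, 4 of 46 tested genes were called higher and 11 lower, with a median log2 ratio of -0.10, against 48.5% and 5.18% of all genes. The 4 were Hsf1 (26.5 against 13.9 CPM, 1.91-fold, 1.62 to 2.26), Hspa14 at a log2 ratio of 1.04, Dnajc7 at 0.65 and Bag4 at 0.66, and none of them was called under median-of-ratios scaling. The log2 ratio of Hsf1, 0.93, is to be read against the median of 0.58 for all genes. Among the 11 lower genes were Dnajb5 (4.51-fold, 3.60 to 5.71), Hspb8 (2.39-fold, 2.16 to 2.65) and Hspd1, the mitochondrial chaperonin (1.83-fold, 1.68 to 1.99). Cryab stood at 338 CPM against 373 CPM. The TRiC subunit gene Cct6a had 600 UMIs in PDL1/ATZ and 0 in both other libraries and was not compared.

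Since muscle transcripts differed between the libraries, cells of isotype and PD1/PEM were also compared at a like share of these transcripts. After the data had been seen, cells were put into 5 bins of equal size by the share of their UMIs from the 10 cardiomyocyte-defining transcripts. These transcripts were also read in cells rich in macrophage markers, by the added rule below, at 28836 CPM in isotype and 19434 CPM in PD1/PEM. Cells of no class held 35461 and 23561 CPM. The muscle content of a cell and background RNA thus cannot be told apart in the bins. Bin 1, with the lowest share, held 310 isotype and 2870 PD1/PEM cells, and bin 5 held 2969 and 211. Dnajb1 was higher in PD1/PEM in all 5 bins, at 2.11, 1.42, 2.12, 1.27 and 1.48 times isotype from bin 1 to bin 5, with intervals that included 1 in bins 4 and 5. Hspb7 was lower in all 5, at 0.760, 0.706, 0.685, 0.781 and 0.625 of isotype, each with an interval below 1. Hspb1 was likewise below 1 in all 5 (0.596 to 0.873), with an interval that included 1 in bin 1. Over all cells Hspb7 was at 0.698 and Hspb1 at 0.737 of isotype, within the range of the bins.

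The inducible pair behaved differently from Dnajb1 under that split. Hspa1a and Hspa1b summed were at 0.977, 1.26, 1.13, 0.987 and 1.17 times isotype, against 1.31 over all cells, with intervals above 1 in bins 2 and 3 alone. Within both libraries the pair was higher in bin 1 than in bin 5: in isotype it stood at 251 CPM in bin 1 and 154 CPM in bin 5, and in PD1/PEM at 246 and 180 CPM. In PDL1/ATZ the pair stood at 103, 118 and 132 CPM in bins 1 to 3, which held most of its cells. It stood at 95.3 and 14.9 CPM in bins 4 and 5, with 106 and 40 cells. Intervals were not computed for these PDL1/ATZ levels, so no order of its bins is read from them. Bag3 turned from 0.709 of isotype (0.578 to 0.877) in bin 1 to 1.14 (0.947 to 1.35) in bin 5. Hsp90ab1 went from 0.971 in bin 1 to 0.764 in bin 5.

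**Figure D3:**
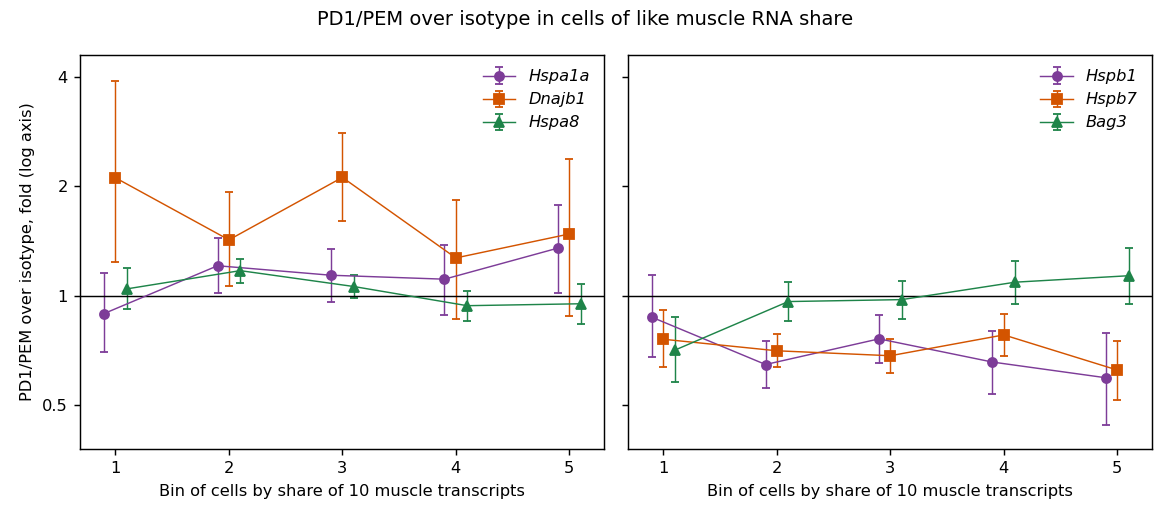
Ratio of PD1/PEM to isotype (log axis) for 6 chaperone genes within 5 bins of cells by the share of 10 muscle transcripts, lowest share left; bars are 95% counting intervals. The points of Dnajb1 lie above 1 and those of Hspb7 below 1 in every bin, whereas Hspa1a, Hspa8 and Bag3 have points on both sides of 1.

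Many cells carried markers of more than 1 cell class. Under the first class rule (at least 3 UMIs from at least 2 markers of 1 class and of no other), 64.5%, 80.0% and 48.7% of isotype, PD1/PEM and PDL1/ATZ cells did so, and the part of free RNA or of doublets, which were not removed, was not tested. A rule added after the data were seen asked for at least 5 UMIs from at least 3 markers and at least 3 times what the library average gives. It named 267, 272 and 168 cells rich in cardiomyocyte markers (such as Corin, Rbm20 and Myh7b, none of which is a chaperone), and left 8770, 5765 and 10775 cells in no class. The median UMIs of the marker-rich cells were 2656, 3883.5 and 2644, against 1497, 1923 and 987 for cells of no class. The separate defining transcripts stood at 38289 against 35461 CPM in isotype, 33262 against 23561 CPM in PD1/PEM and 24215 against 15472 CPM in PDL1/ATZ. The limit of 3 times is not sharp, since 351, 275 and 13 cells lay between 2.5 and 3.5 times.

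Bag3 had the highest ratio of the 10 genes between cells rich in cardiomyocyte markers and cells of no class, in each of the 3 libraries. It stood at 311 CPM in the marker-rich cells against 189 CPM in isotype, 275 against 161 CPM in PD1/PEM and 231 against 132 CPM in PDL1/ATZ. The ratios were 1.65 (1.44 to 1.89), 1.71 (1.51 to 1.93) and 1.75 (1.43 to 2.13). Hspa8 and both Hsp90 genes went the other way in all 3 libraries: Hsp90ab1 was at 0.660, 0.640 and 0.676 of the level in cells of no class, Hsp90aa1 at 0.774, 0.711 and 0.694, and Hspa8 at 0.704, 0.735 and 0.591, each with an interval below 1. Under the first rule, with endothelial-marker cells as the base, the ratio of Bag3 was above 1 in the 3 libraries (1.15 to 1.52) with intervals that included 1. That of Hsp90ab1 was below 1 (0.660 to 0.818), with an interval that included 1 in PDL1/ATZ. Hsp90aa1 was at 0.999 (0.840 to 1.18) in isotype and 0.875 (0.560 to 1.31) in PD1/PEM under the first rule. Hspa8 was at 0.931 (0.792 to 1.09) and 0.795 (0.527 to 1.15), so these intervals included 1. In PDL1/ATZ both had intervals below 1, Hsp90aa1 at 0.365 (0.118 to 0.855) from 5 UMIs and Hspa8 at 0.490 (0.261 to 0.840) from 13 UMIs.

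**Figure D4:**
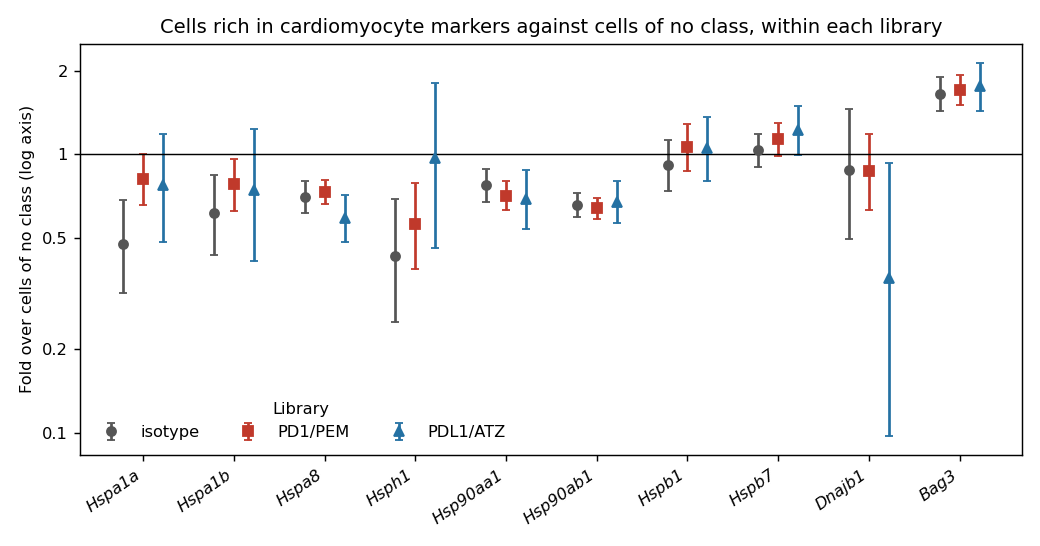
Level of each chaperone gene in cells rich in cardiomyocyte markers divided by its level in cells of no class (log axis), within each library; bars are 95% counting intervals. Bag3 lies at 1.65 to 1.75 in the 3 libraries, and Hspa8, Hsp90aa1 and Hsp90ab1 lie below 1 in all of them.

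The muscle gene Hspb7 had lower ratios than Bag3 in the same cells. Its ratio to cells of no class was 1.03 in isotype, 1.13 in PD1/PEM and 1.22 in PDL1/ATZ, and the 3 intervals included 1. Under the first rule, against endothelial-marker cells, it was 0.941, 1.11 and 2.01, with an interval above 1 in PDL1/ATZ (1.28 to 3.01). In cells rich in macrophage markers, a type that should lack the gene, Hspb7 stood at 285 CPM in isotype and 200 CPM in PD1/PEM, 0.973 (0.776 to 1.21) and 0.986 (0.783 to 1.23) of cells of no class. In PDL1/ATZ it stood at 111 against 187 CPM, 0.593 of cells of no class (0.426 to 0.804). UMIs of this muscle gene were thus present in macrophage-marker cells at levels not apart, by their intervals, from those in cells of no class in isotype and PD1/PEM. Cells of no class made up 92.2%, 90.2% and 92.9% of the isotype, PD1/PEM and PDL1/ATZ cells. Where a chaperone level in a class is near theirs, background and the transcripts of the class itself cannot be told apart.

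In isotype and PD1/PEM, by the rule added after the data were seen, the inducible Hsp70 pair was lower in cells rich in cardiomyocyte markers. Hspa1b was higher there in mural-marker cells. The pair stood at 0.548 of cells of no class in isotype (0.425 to 0.696), 0.798 in PD1/PEM (0.685 to 0.925) and 0.762 in PDL1/ATZ (0.534 to 1.06). In cells rich in markers of pericytes and smooth muscle (142, 99 and 189 cells), Hspa1b was at 143 against 88.9 CPM in isotype, 1.61-fold higher (1.16 to 2.18), and at 183 against 113 CPM in PD1/PEM, 1.62-fold higher (1.18 to 2.19). In PDL1/ATZ the ratio was 0.913 (0.469 to 1.61), from 12 UMIs. Hspa1a in mural-marker cells was at 1.20 (0.807 to 1.72) in isotype and 1.05 (0.693 to 1.52) in PD1/PEM. Under the first rule, against endothelial-marker cells, intervals in isotype and PD1/PEM included 1. The pair was at 0.841 (0.634 to 1.10) and 0.608 (0.274 to 1.18) in cardiomyocyte-marker cells. Hspa1b was at 1.40 (0.707 to 2.51) and 0.883 (0.180 to 2.65) in mural-marker cells, the last from 3 UMIs. Fibroblast-marker cells (151, 75 and 219) gave ratios of the pair between 1.06 and 1.13 with intervals that included 1 in every library.

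Between libraries, the difference of Hspa1a was larger over cells rich in cardiomyocyte markers, by the rule added after the data were seen, than over all cells. It stood at 90.8 CPM in those cells of PD1/PEM and 39.6 CPM in those of isotype, 2.29-fold higher (1.5 to 3.60), against 1.34-fold (1.24 to 1.45) in cells of no class. These intervals do not overlap, but the isotype value rests on 29 UMIs, and the difference between classes was not tested. Hspa1b was 1.61-fold higher in the marker-rich cells (1.10 to 2.39), an interval that overlapped that of cells of no class (1.18 to 1.37). Under the first rule Hspa1a showed no such difference in cardiomyocyte-marker cells. It stood there at 61.6 CPM in PD1/PEM, from 4 UMIs, and 59.8 CPM in isotype, from 26 UMIs. By the added rule Dnajb1 was 1.95-fold higher in cells rich in cardiomyocyte markers (1.08 to 3.69) and 1.97-fold in cells of no class (1.73 to 2.24). The same contrast gave Dnajb1 ratios of 2.15 in fibroblast-marker (0.905 to 5.36), 2.52 in macrophage-marker (0.983 to 7.62) and 4.38 in mural-marker cells (1.38 to 18.3), from 10, 6 and 4 isotype UMIs, and the first 2 intervals included 1. Hspb7 was below isotype in all 4 marker classes (0.626 to 0.820), with an interval that included 1 in fibroblast-marker cells.

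Within a library the share of cells with a UMI differed widely between the chaperone genes. Thinned to 1000 UMIs per cell, with 1784 isotype, 532 PD1/PEM and 5677 PDL1/ATZ cells left out, Dnajb1 was seen in 2.23%, 4.97% and 2.25% of cells and Hspa1a in 8.15%, 10.3% and 5.78%. Without thinning these shares were 4.19%, 10.5% and 2.99%, and 12.9%, 21.4% and 7.49%. Hsp90ab1 was seen in 59.5%, 55.2% and 34.4% of thinned cells, and without thinning in 74.0%, 78.8% and 41.5% of cells. Apart from macrophage-marker cells for Hspb7, no cell type that lacks these genes was known, and no background was set for the shares. Variance over the value expected from depth alone was between 0.978 and 1.16 for the 10 genes, where the median gene had 1.03 to 1.05. The 1% of cells with most UMIs of a gene held between 4.37% (Hsp90ab1 in PD1/PEM) and 37.2% (Hsph1 in PDL1/ATZ) of them. Hsph1 had 328 UMIs in 322 cells of PDL1/ATZ, so its value follows from few UMIs. The highest count in any cell was 7 UMIs for Hspa1a and 3 UMIs for Dnajb1. Of cells with a UMI of Hspa1a, 18.3%, 27.1% and 7.48% also had one of Hspa1b, against 13.4%, 20.8% and 5.24% of cells without Hspa1a. These shares were not thinned, so depth was not matched between cells with and without Hspa1a.

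Genes whose pattern was most like that of Hspa1a were sought over the 10 class and library values with at least 50 cells under the first class rule. The search covered 4050 genes with at least 500 UMIs in each library. Hsph1 and Dnajb1, with 328 and 355 UMIs in PDL1/ATZ, fell below that limit and have no value here. The Pearson correlation of log2(CPM + 10) was highest for Adamts9 (0.96), Pdk1 (0.95), Bdp1 (0.95), Emp1 (0.94) and Akap12 (0.93). Of the other chaperone genes it was 0.88 for Hspa1b, 0.86 for Hsp90aa1 and 0.77 for Hsp90ab1, but 0.40 for Hspa8, 0.12 for Bag3, 0.09 for Hspb7 and -0.26 for Hspb1. The 10 points share libraries, so these values are a description.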

How the data were processed

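Droplet single-cell RNA-seq of pooled mouse hearts was analysed, 1 library for each of 3 groups. The authors deposited raw UMI counts as 1 gene by cell matrix per library. Cell Ranger, Seurat and the build mm10 are named in the submitters' processing notes, and their versions or cell filters are not given there. Groups were taken from sample titles. The genes, the lists and the comparisons were chosen with earlier results of these data known. All deposited cells were used and UMIs were summed per library, or per class, and divided by the UMI total of the same cells (CPM). Intervals are at 95% and cover counting error only: exact Poisson for sums, Clopper-Pearson for shares, and conditional binomial for ratios of sums. Log2 ratios used a pseudocount of 0.5. A gene needed 50 UMIs over the libraries compared, and was called at 1.5-fold with an interval leaving out 1. In comparisons with PDL1/ATZ, symbols at 0 in 1 of the sets of libraries (1942 and 2893) were left out, a choice made after this was seen. Doublets were not removed.

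All 10 genes are named. Of the network list up to 4 genes called per direction in PD1/PEM, with Hsf1 and Cryab, of the immediate early list the 3 highest, and of all genes the 5 most like Hspa1a are named. Network genes called in PDL1/ATZ, and Cct6a, were named after their values were seen. Positions come from GENCODE M21 on GRCm38. The ratio step was tested on simulated data. Python 3.11.15, numpy 2.4.6, scipy 1.17.1 and pandas 2.3.3 were used.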

Additional observations from a re-analysis of the deposited data

How the results depend on the processing

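With 1 library per group no replicate could be left out, and no replicate numbers are shared. No paired analysis was possible because each group has 1 library. Each count of calls was recomputed under 10 planned settings in PD1/PEM and 9 in PDL1/ATZ. With a 2-fold rule 0 chaperone genes were higher in PD1/PEM and with a lower fold limit than 1.5 (the lowest tried) 3 were higher and 2 lower. In PDL1/ATZ 3 were lower with a 2-fold rule and 9 under median-of-ratios scaling. That scaling called 2310 of all genes lower and 3087 higher, against 803 and 7508 by total UMIs. Counts over all genes at the other fold limits are not given here, so calls at those limits have no share of all genes beside them. The network list in PD1/PEM had 0 genes higher among cells with at most 25% mitochondrial UMIs, with at least 1000 UMIs or at 2-fold, and 2 at the lower fold limit. Its lower genes numbered 2 among cells with at most 25% mitochondrial UMIs, 7 among cells over 25%, 1 at 2-fold and 10 at the lower fold limit. Of all genes, 611 were higher and 492 lower among cells with at most 25%, and 707 and 556 among cells over 25%. Among cells with at least 1000 UMIs, 739 of all genes were higher and 545 lower. In PDL1/ATZ the network list had 2 genes higher by nuclear UMIs, where 4456 of all genes were. It had 0 higher under median-of-ratios scaling, 1 at 2-fold and 10 at the lower fold limit. Its lower genes there numbered 24 under median-of-ratios scaling and 2 at 2-fold. The cause of these moves was not tested, beyond the change of fold itself. In PD1/PEM 9 of the 10 chaperone genes kept the sign of their log2 ratio under all 8 settings of cells and scaling, with Hsp90aa1 the exception, and in PDL1/ATZ 9 of 10 did under 7 settings, with Dnajb1 the exception. The log2 ratio of Dnajb1 in PD1/PEM ranged from 0.80 to 1.08. Of the log2 ratios of the 10 genes recomputed under these settings 118 stayed inside and 32 left their counting interval, and of the class levels 216 stayed and 74 left. Depth limits the class values: in PDL1/ATZ 12 UMIs stood behind Hspa1b in mural-marker cells.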
